A study of Mus musculus with 48 samples.

Results

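A cluster of 3 miRNA hairpins, Mir183, Mir96 and Mir182, was followed through 48 small RNA libraries of the mouse fetal ovary. The cluster's members were chosen by name, as the rows mmu-miR-183-5p, mmu-miR-96-5p and mmu-miR-182-5p of the deposited table of mature miRNA counts, and make up 3 of its 563 rows. Early ovaries came from wild-type CD1 embryos at embryonic day 13.5, and pools of about 80 gonads were split with anti-CD15 magnetic beads into primordial germ cells (PGC) and the remaining somatic cells (SC). Pregnant females had received MEHP at an estimated 35 mg per kg body weight per day, vinclozolin (VZN) at an estimated 50 mg per kg per day, or vehicle alone (Control) in the drinking water for 13 days. MEHP is the monoester formed from a phthalate plasticiser, VZN is an anti-androgenic fungicide, and all 3 arms, controls included, carried 0.3% DMSO. Libraries were made from each of 4 generation classes: F1, exposed in the uterus, F2 and F3, descended from it, and F2Sy, a second generation whose parents both came from the same lineage. This gives 24 groups of 2 libraries, 8 libraries for each lineage in each fraction.

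The fractions were not pure: by the stain counts in the labels, PGC fractions held 93 to 96% germ cells and SC fractions over 90% somatic cells. Marker miRNAs of both were summed as a description, from lists chosen with earlier results of these data known. The miR-290-295 miRNAs, made in pluripotent cells and early germ cells, were all in the table (18 of 18), 12 of them listed in all 48 libraries. In CPM, which are counts scaled to the listed total of a library, those 12 summed to between 169396 and 284737 CPM in PGC and between 3538 and 21213 CPM in SC. Somatic and mesenchymal miRNAs, such as the gonadal miR-202-5p, ran the other way: the 10 of 13 listed in all libraries summed to 9727 to 39475 CPM in PGC and 188290 to 258854 CPM in SC. Listed counts per library totalled 2932091 to 7946140 in PGC and 7460018 to 11761591 in SC. The libraries least correlated with the others of their fraction were libraries 1 and 2 of VZN PGC F2Sy, with a mean r of 0.911 and 0.923, and library 1 of MEHP SC F3, with 0.933. Library 2 of VZN PGC F2Sy also had the fewest listed counts. The labels do not tell if both libraries of a group stem from different animals, and a p-value here reflects library-to-library spread that could be purely technical.

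The miR-183 cluster is transcribed as a single precursor RNA from which 3 hairpins are cut. It is best known from sensory organs: it is abundant in the retina and in the hair cells of the inner ear, and changes in the miR-96 seed cause progressive hearing loss in mice and in people. miR-96 and miR-182 are also known repressors of the transcription factor Foxo1. A miRNA finds its targets mainly through its seed, bases 2 to 8 from the 5′ end, so members with related seeds can share targets in part.

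The mature sequences are shown because the 3 members are related copies that differ within the seed, which is in capitals (RefSeq, GRCm38.p6, 5′ to 3′).
miR-183-5p: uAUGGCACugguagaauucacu
miR-96-5p: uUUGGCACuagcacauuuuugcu
miR-182-5p: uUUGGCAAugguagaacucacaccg
Counted from the 5′ end, the seed of miR-183-5p differs from that of miR-96-5p by A2U and from that of miR-182-5p by A2U and C8A. miR-96-5p and miR-182-5p differ by C8A, so that both share bases 2 to 7. Over their shared length miR-183-5p matches miR-182-5p at 18 of 22 bases and miR-96-5p at 13 of 22. Of the mouse miRNAs in RefSeq, no other carries the seed of miR-183-5p or miR-182-5p, and miR-1271-5p alone carries that of miR-96-5p. miR-1271-5p was not among the rows of the count table, of which 478 could be matched to RefSeq names.

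The hairpins show where each arm lies, with the 5p arm first and the 3p arm second, both in capitals.
Mir183: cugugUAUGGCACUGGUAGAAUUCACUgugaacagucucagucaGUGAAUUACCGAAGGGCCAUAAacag
Mir96: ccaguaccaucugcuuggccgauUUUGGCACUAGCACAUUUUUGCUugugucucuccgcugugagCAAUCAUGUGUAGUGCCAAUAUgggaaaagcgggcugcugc
Mir182: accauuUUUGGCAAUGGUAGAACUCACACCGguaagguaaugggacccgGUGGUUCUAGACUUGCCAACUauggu
They lie in that order on the minus strand of chromosome 6 in GRCm38.p6, Mir183 at chr6:30169668-30169737, Mir96 at chr6:30169446-30169551 and Mir182 at chr6:30165918-30165992. The whole cluster spans 3820 bases, with 116 bases between Mir183 and Mir96 and 3453 between Mir96 and Mir182. It overlaps no protein-coding gene in GENCODE M21 and lies between Nrf1, 12459 bases away, and Ube2h, 41551 bases away. The deposited counts were made on another build, mm39, in which no coordinates are given here.

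All 3 members were far more abundant in PGC than in SC, in each lineage and without overlap between the fractions. Among the 24 PGC libraries mmu-miR-183-5p had its lowest value at 13283, its median at 39962 and its highest at 52589 CPM, against 292, 1578 and 3681 CPM in the 24 SC libraries. For mmu-miR-182-5p the same 3 values were 10696, 30813 and 43948 CPM in PGC and 346, 1216 and 3112 CPM in SC. mmu-miR-96-5p was the scarcest member, with 6587, 9377 and 13879 CPM in PGC and 126, 344 and 998 CPM in SC. Every PGC library stood above every SC library for each of them. The members' counts behind these levels ran between 31362 and 347518 reads in PGC and between 1079 and 31551 reads in SC, so counting error was small beside the spread between libraries.

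The cluster was among the most abundant miRNAs of the germ cell fraction. miR-183-5p had a median rank of 4.5 among the listed miRNAs of a PGC library, miR-182-5p of 7 and miR-96-5p of 21.5. In SC the median ranks were 87 for miR-183-5p, 103 for miR-182-5p and 182.5 for miR-96-5p. Together the members took 8.02% ± 1.53 of listed counts in PGC and 0.324% ± 0.132 in SC (SD, n = 24 libraries each). Reads of different miRNAs were not calibrated against each other, so ranks and shares are those of reads.

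**Figure D1:**
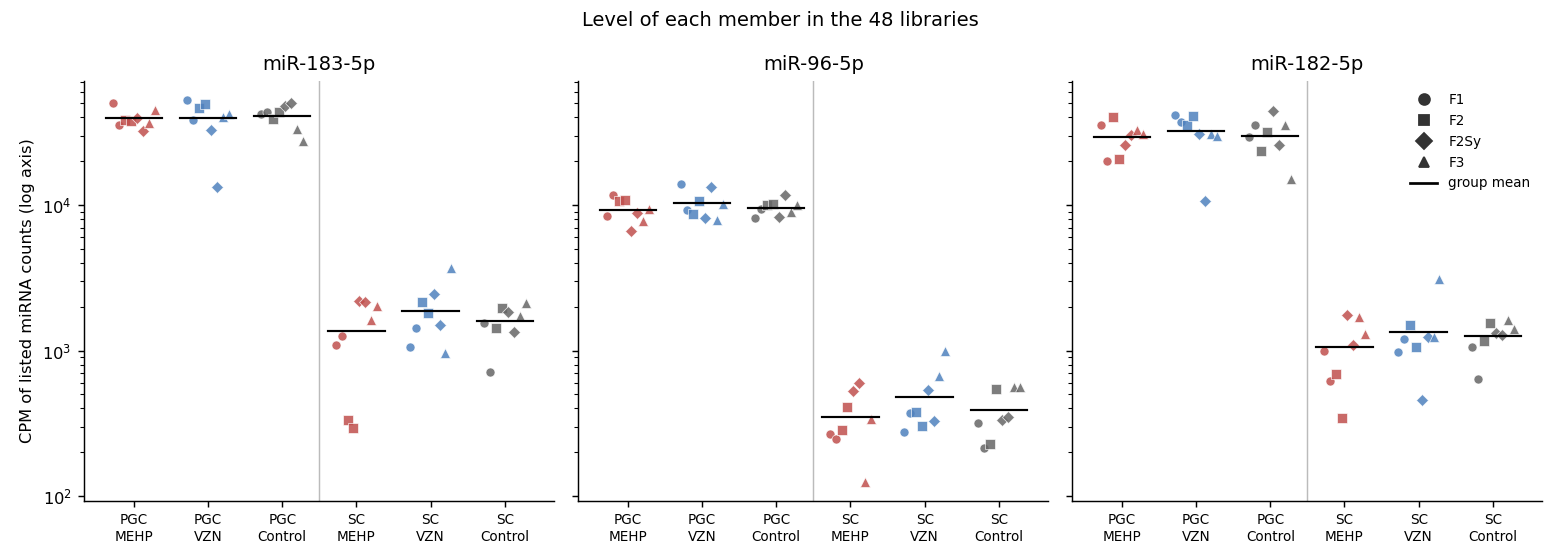
Level of each member in every library, in CPM on a log axis, by fraction and lineage; points are libraries, their shape gives the generation class, and bars are means of 8 libraries. All PGC libraries lie above all SC libraries, the lowest miR-183-5p point in PGC is library 2 of VZN PGC F2Sy at 13283 CPM, and the lowest pair in SC is MEHP SC F2 at 335 and 292 CPM.

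Within a fraction, the lineages differed by less than the spread between their libraries. miR-183-5p averaged 39516 ± 5533 CPM in MEHP PGC, 39402 ± 12357 in VZN PGC and 40954 ± 7394 in Control PGC (SD, n = 8 libraries each). In SC it averaged 1367 ± 763 CPM in MEHP, 1879 ± 889 in VZN and 1590 ± 445 in Control. The Control libraries were highest in PGC and the VZN libraries in SC, but no neighbours in this order were further apart than 1 SD. miR-96-5p averaged 9269 ± 1725, 10245 ± 2300 and 9583 ± 1137 CPM in MEHP, VZN and Control PGC, and 349 ± 156, 482 ± 247 and 389 ± 145 CPM in the same lineages of SC. miR-182-5p averaged 29515 ± 7024, 32144 ± 9791 and 30001 ± 8755 CPM in MEHP, VZN and Control PGC, and 1062 ± 506, 1349 ± 774 and 1252 ± 310 CPM in SC. For miR-96-5p and miR-182-5p the order in both fractions was VZN, Control, MEHP, again with neighbours closer than 1 SD. Relative spread was wider in SC: the coefficient of variation over 24 libraries was 21.4% in PGC and 44.9% in SC for miR-183-5p.

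The contrast of fractions was tested with edgeR's quasi-likelihood test on all 48 libraries, over the 251 miRNAs listed in each of them, with Benjamini-Hochberg adjustment. In the MEHP lineage miR-183-5p was higher in PGC by 5.26 ± 0.25 on the log2 scale (SE), or 38.3-fold with a 95% interval of 27.0 to 54.5, at an adjusted p of 9.0e-18. In the VZN lineage the difference was 4.44 ± 0.24 (adjusted p = 1.9e-16), and in the Control lineage 4.80 ± 0.24 (adjusted p = 3.8e-17). miR-96-5p was higher by 4.90 ± 0.24 in MEHP, 4.57 ± 0.24 in VZN and 4.78 ± 0.24 in Control lineages, with adjusted p of 1.6e-17, 9.1e-17 and 2.7e-17. miR-182-5p was higher by 5.03 ± 0.29, 4.69 ± 0.29 and 4.71 ± 0.29 in the same lineages, with adjusted p of 6.0e-16, 2.4e-15 and 1.7e-15. All 9 values passed the test. A call was common in these data: 44.6% of the tested miRNAs were called higher in PGC in the MEHP lineage, 38.6% in the VZN and 41.8% in the Control lineage.

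Against that background it is the size of the members' differences that sets the cluster among the upper values. The median difference over the 251 miRNAs was 0.06 in the MEHP, 0.12 in the VZN and 0.09 in the Control lineage, and the members' values lay between 4.44 and 5.26. Ranked by fold change in the MEHP lineage, miR-183-5p was the second of 251, miR-182-5p the seventh and miR-96-5p the 11th. In the VZN lineage miR-182-5p ranked 6, miR-96-5p 11 and miR-183-5p 20. In the Control lineage the members ranked 15 (miR-183-5p), 17 (miR-96-5p) and 22 (miR-182-5p). Only miRNAs listed in every library could be ranked, so those blank in SC libraries, such as miR-182-3p, could not enter. A complete separation of PGC above SC libraries was also no rarity, seen for 30.7% of miRNAs in the MEHP, 28.3% in the VZN and 32.7% in the Control lineage.

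**Figure D2:**
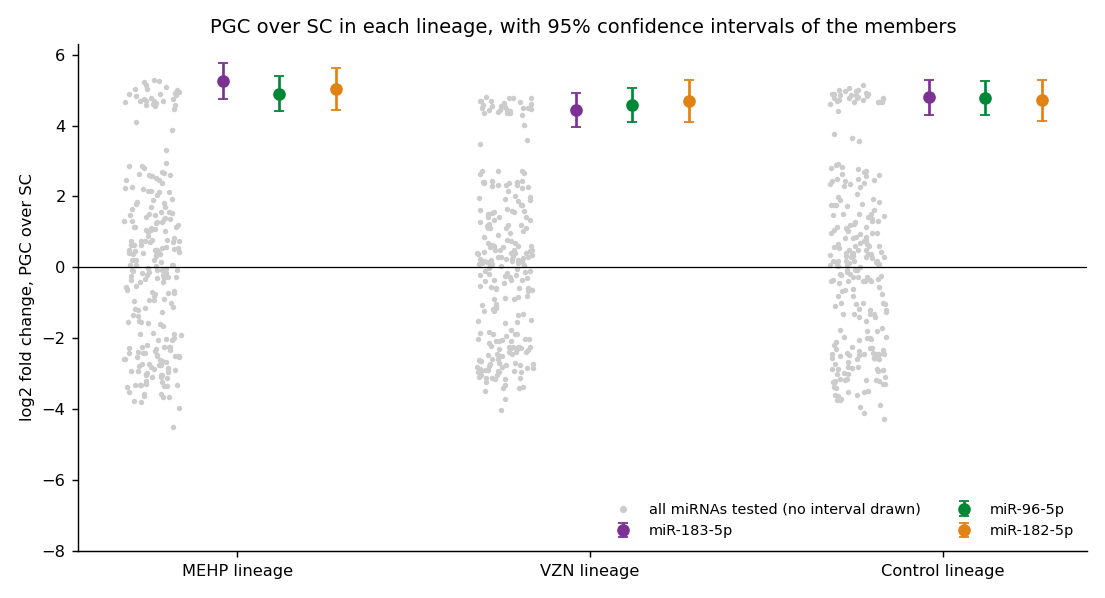
log2 fold change of PGC over SC by lineage; coloured points are the members with 95% confidence intervals and grey points are all 251 tested miRNAs, members included. The members lie between 4.44 and 5.26, within the uppermost group of the tested miRNAs in each lineage.

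Whether exposure changed the contrast itself was tested with an interaction term. MEHP minus Control, the difference of contrasts was 0.46 for miR-183-5p (95% interval -0.14 to 1.06), 0.12 for miR-96-5p and 0.32 for miR-182-5p. For VZN minus Control it was -0.36 for miR-183-5p, -0.21 for miR-96-5p and -0.02 for miR-182-5p. None of these 6 values passed the test, the smallest adjusted p was 0.961, and no tested miRNA did in either comparison. The sign for miR-183-5p in the VZN comparison turned to 0.043 when the F2Sy class, with both VZN PGC libraries that stand apart, was left out.

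The germ cell markers gave contrasts of the same size as the cluster. The 12 tested miR-290-295 miRNAs had a median difference of 4.85 in the MEHP, 4.59 in the VZN and 4.86 in the Control lineage, and all 12 were called higher in PGC in each. miR-9-5p, a miRNA of neural tissue, was higher by 4.79 in the Control lineage, while miR-7a-5p of the same sensory and neural list differed by 0.11 there and was not called. Of the 3 tested members of that list, 2 were called higher in PGC in the MEHP lineage and 1 in each of the VZN and Control lineages. miR-200c-3p, of the epithelial miR-200 family, was higher by 4.42, whereas the 3 other tested members of that family differed by 0.09 to 0.29 in the Control lineage and were not called. In the MEHP lineage all 4 tested members of the family were called higher in PGC, and in the VZN lineage 1 was.

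The cluster stood to the germ cell markers at about the same percentage in both fractions. Summed over its members, the cluster came to 36.0% ± 7.5 of the summed miR-290-295 markers in PGC and 35.1% ± 8.3 in SC (SD, n = 24 libraries each). Among SC libraries, the highest level of all 3 members was in library 2 of VZN SC F3, with 3681 CPM of miR-183-5p, 998 CPM of miR-96-5p and 3112 CPM of miR-182-5p. That library also had the highest germ cell marker sum of the SC libraries, 21213 CPM. The part of germ cells in the SC levels was not tested. In bulk RNA of this kind, fewer cells of a type and less RNA per cell cannot be told apart.

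**Figure D3:**
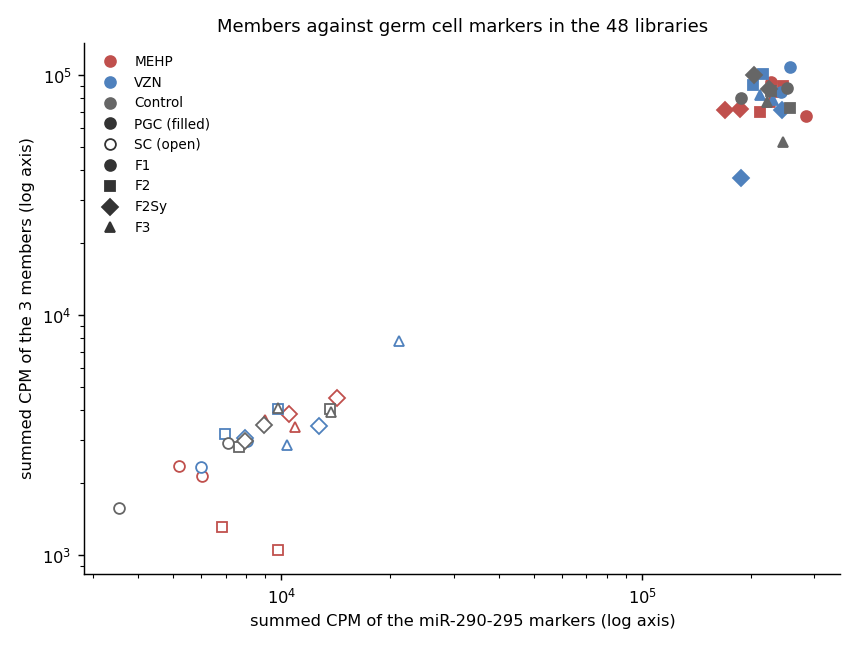
Summed CPM of the members against summed CPM of the 12 miR-290-295 markers listed in every library, both on log axes; filled points are PGC, open points SC, colours are lineages and shapes generation classes. SC libraries lie at the lower left on about the same ratio as PGC libraries, and both MEHP SC F2 libraries lie below that ratio, at 19.1% and 10.7%.

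Across libraries of 1 fraction, 18 correlations of log2 CPM were computed, with 100000 permutations each and Benjamini-Hochberg adjustment over the 18. The permutations took no account of lineage, generation class or group, so their p-values treat libraries as exchangeable. In the 24 SC libraries the germ cell marker sum went with miR-96-5p at Pearson's r = 0.695 (permutation p = 0.00025, adjusted 0.00225) and Spearman's rho = 0.773 (p = 4e-05, adjusted 0.00072). With miR-183-5p r was 0.518 (permutation p = 0.0115, adjusted 0.0356) and rho 0.671 (adjusted 0.00495), and with miR-182-5p r was 0.512 (permutation p = 0.0119, adjusted 0.0356) and rho 0.640 (adjusted 0.00564). Without the 2 libraries farthest from the median marker sum, r was 0.552 for miR-96-5p, 0.336 for miR-183-5p and 0.251 for miR-182-5p. The size of r thus depended on those libraries for each member, and rho was not computed without them. In the 24 PGC libraries the somatic marker sum went against miR-96-5p (r = -0.595, permutation p = 0.002, adjusted 0.009, and r = -0.497 without 2 libraries; rho = -0.563, adjusted 0.0168). With miR-183-5p rho was of like size (-0.572, adjusted 0.0168), while r was -0.356 (permutation p adjusted 0.157) and -0.405 without 2 libraries, and with miR-182-5p r was -0.113 (permutation p adjusted 0.642). In PGC the germ cell marker sum passed with no member, by r or rho. Its r was 0.403 with miR-183-5p, 0.405 with miR-96-5p and 0.281 with miR-182-5p (permutation p adjusted 0.114, 0.114 and 0.276). The somatic marker sum in SC also passed with none, at r of -0.17, 0.114 and -0.16 (permutation p adjusted 0.577, 0.642 and 0.578). All of these values come from shares of the same listed total, so they are not independent measurements.

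The members' levels were also set against each other within each fraction. In PGC, r between miR-183-5p and miR-182-5p was 0.810 (permutation p = 5e-05, adjusted 0.0009) and rho 0.519 (adjusted 0.0232), and between miR-183-5p and miR-96-5p r was -0.02 (permutation p adjusted 0.926) and rho 0.199 (adjusted 0.423). Without library 2 of Control PGC F3 and library 2 of VZN PGC F2Sy, r was 0.464 with miR-182-5p and 0.447 with miR-96-5p. In SC, r between miR-183-5p and miR-182-5p was 0.681 (permutation p = 0.00054, adjusted 0.00324) and rho 0.557 (adjusted 0.0174), and between miR-183-5p and miR-96-5p r was 0.363 (permutation p adjusted 0.157) and rho 0.524 (adjusted 0.0232). Without both MEHP SC F2 libraries, r was 0.506 with miR-182-5p and 0.559 with miR-96-5p. Between miR-96-5p and miR-182-5p r was -0.129 in PGC (permutation p adjusted 0.642) and 0.297 in SC (permutation p adjusted 0.258). The correlations were not tested against each other.

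As a description of likeness, the other miRNAs listed in all 24 libraries of a fraction were ranked by Pearson's r with each member. In PGC the non-members nearest to miR-183-5p were miR-669o-5p (r = 0.833), miR-3068-5p (0.736) and miR-200c-3p (0.732), and miR-182-5p ranked second among all 302 others. Nearest to miR-182-5p were miR-224-5p (0.750), miR-672-5p (0.720) and miR-3068-5p (0.711), behind miR-183-5p in first place. miR-96-5p was nearest to miR-302c-3p (0.765), miR-211-5p (0.707) and miR-191-3p (0.701), and its cluster partners ranked 158 (miR-183-5p) and 188 (miR-182-5p) of 302. These ranks cover all 24 libraries and depend on single ones. Without library 2 of Control PGC F3 and library 2 of VZN PGC F2Sy, r of miR-183-5p with miR-96-5p went from -0.02 to 0.447. With miR-182-5p it went from 0.810 to 0.464. In SC miR-96-5p was nearest to miR-293-5p (0.920) and miR-291b-3p (0.916), both of the germ cell marker list, and to miR-29a-3p (0.915). miR-183-5p in SC was nearest to miR-182-5p, then to miR-291b-5p (0.663), miR-31-5p (0.659) and miR-22-3p (0.630). miR-182-5p in SC was nearest to miR-183-5p, then to miR-92b-3p (0.611), miR-292a-3p (0.578) and miR-291b-5p (0.527).

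The 3 members kept similar proportions in both fractions. miR-183-5p made up 49.6% ± 4.8 of the members' summed counts in PGC and 48.4% ± 9.6 in SC (SD, n = 24 libraries each). miR-182-5p made up 37.6% ± 5.4 in PGC and 38.0% ± 7.6 in SC, and miR-96-5p 12.8% ± 5.5 in PGC and 13.5% ± 6.8 in SC. The fractions' means differed by less than the spread between libraries for each member. Single libraries departed from this. Library 2 of VZN PGC F2Sy had 35.6% miR-183-5p and 35.8% miR-96-5p, and the MEHP SC F2 libraries had 25.6 and 27.9% miR-183-5p with 21.7 and 39.1% miR-96-5p. Library 1 of VZN SC F2Sy had 71.1% miR-183-5p and 13.4% miR-182-5p.

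**Figure D4:**
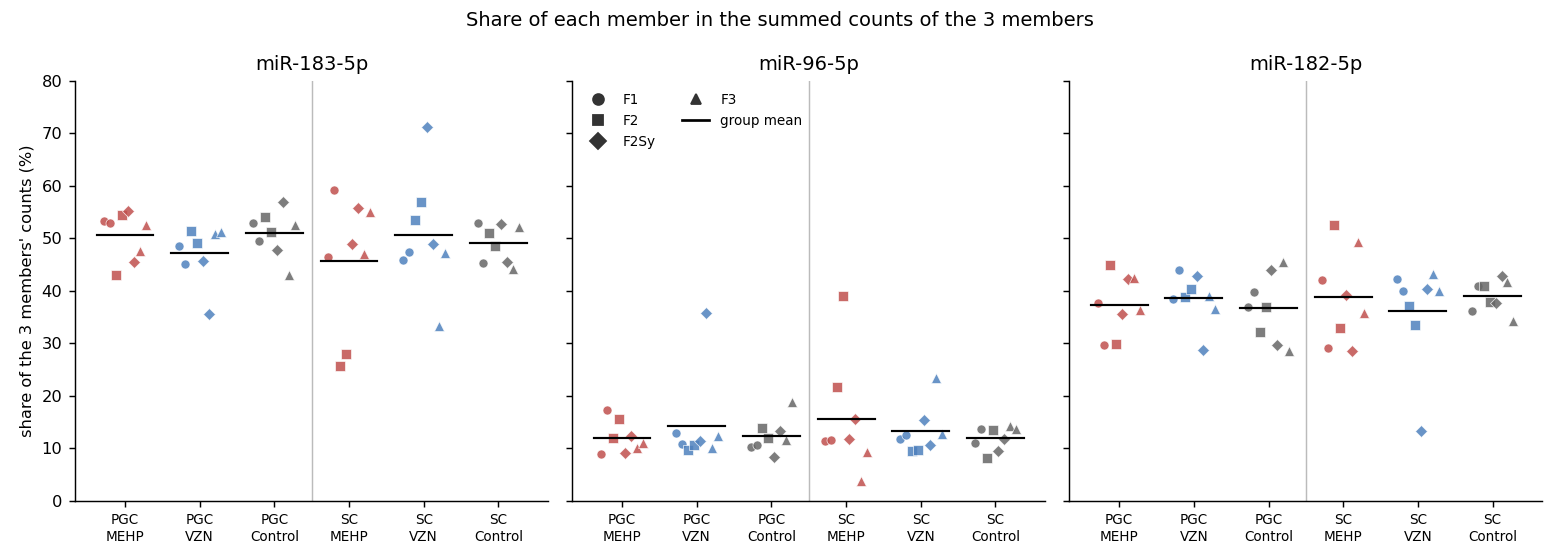
Share of each member in the summed counts of the 3 members, in percent, by fraction and lineage; points are libraries, shapes generation classes and bars means of 8 libraries. The means of miR-183-5p lie near 50% in both fractions, and the MEHP SC F2 libraries, at 25.6 and 27.9%, are its lowest.

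Of the other arms of these hairpins, miR-183-3p and miR-182-3p were in the table, and miR-96-3p was not among its rows. miR-183-3p was listed in all 24 PGC libraries, between 603 and 1682 CPM, and in 18 of 24 SC libraries, between 13.5 and 51.6 CPM. In SC it was listed in 2 of 6 F1, 5 of 6 F2, 6 of 6 F2Sy and 5 of 6 F3 libraries. miR-182-3p was listed in 19 of 24 PGC libraries, with a median of 78.9 CPM, and in none of 24 SC libraries. The rule behind blank cells is not given in the labels or headers used, and they were treated as missing. The 5p arm of miR-183 exceeded its 3p arm by a median of 36.5-fold in PGC and 73.5-fold in the SC libraries that list both. The smallest ratios were 7.90 in library 2 of VZN PGC F2Sy and 8.03 in library 2 of MEHP SC F2. The PGC library had the lowest miR-183-5p of its fraction, 13283 CPM, together with the highest miR-183-3p and miR-182-3p, 1682 and 219 CPM.

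Averaged over the 4 generation classes, no member passed the test for either exposure. In PGC, MEHP over Control was -0.02 ± 0.16 for miR-183-5p, -0.04 ± 0.15 for miR-96-5p and -0.01 ± 0.24 for miR-182-5p on the log2 scale (SE). VZN over Control in PGC was -0.12 ± 0.16, 0.06 ± 0.15 and 0.04 ± 0.24 for the same members. In SC, MEHP over Control was -0.51 ± 0.24 for miR-183-5p (95% interval -1.02 to 0.01), -0.18 ± 0.22 for miR-96-5p and -0.34 ± 0.25 for miR-182-5p, and VZN over Control was 0.25 ± 0.24, 0.27 ± 0.23 and 0.07 ± 0.25. None of these 12 values passed, with adjusted p of at least 0.935 in edgeR and none with an unadjusted p under 0.05, against 2.13% of all values. With DESeq2 no member was called and 1 of the 12 had an unadjusted p under 0.05, against 3.04% of all values. Over all miRNAs tested, 0% were called in these 4 comparisons. MEHP over VZN in SC was -0.75 ± 0.24 for miR-183-5p, the smallest unadjusted p of 355 miRNAs (0.00718) but an adjusted p of 0.969. The 6 values of MEHP over VZN included no call. By class, MEHP over Control of miR-183-5p in SC was -0.05 in F1, -2.42 in F2, 0.47 in F2Sy and -0.02 in F3. The MEHP SC F2 libraries thus carried its average of -0.51, and they enter its MEHP over VZN value too.

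Within single generation classes, where 2 exposed were set against 2 Control libraries, none of the 48 member values passed the edgeR test, against 0.019% of all values over the 16 comparisons. Unadjusted p under 0.05 occurred for 4 of the 48, and for 3.82% of the values of all miRNAs. The exposed and Control libraries did not overlap for 16 of the 48 member values, 9 above and 7 below, and for 31.6% of the values of all miRNAs.

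Among SC libraries, miR-183-5p was lowest in the F2 class of the MEHP lineage. It had 335 and 292 CPM in MEHP SC F2, against 1439 and 1971 CPM in Control SC F2. These are the lowest of the 24 SC libraries, whose next value was 710 CPM. The difference was -2.42 ± 0.51 on the log2 scale, the lowest value and the smallest p of the 355 miRNAs tested, but the adjusted p was 0.0853. Under the alternatives the adjusted p lay between 5.9e-05 (DESeq2) and 0.156 (blanks as 0 and no filter), and with library size alone as scaling it was 0.0485. That range does not cover the fits without 1 library, in which the difference lay between -2.60 and -2.23 and remained uncalled. miR-182-5p had 689 and 346 CPM in MEHP SC F2 and 1157 and 1539 CPM in Control SC F2, a difference of -1.36 ± 0.50 (adjusted p = 0.952). miR-96-5p had 284 and 409 CPM there and 229 and 548 CPM in Control SC F2, and these libraries overlapped (-0.14 ± 0.45).

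The same MEHP libraries set the comparison of F2Sy with F2. miR-183-5p had 2190 and 2147 CPM in MEHP SC F2Sy, against 335 and 292 CPM in MEHP SC F2. The difference of 2.77 ± 0.52 passed the test (adjusted p = 0.0259) and was the only call among the 355 miRNAs, or 0.282%. miR-182-5p, with 1761 and 1098 CPM in MEHP SC F2Sy, differed by 1.44 ± 0.50 (adjusted p = 0.456), and miR-96-5p, with 530 and 597 CPM there, by 0.69 ± 0.45 (adjusted p = 0.858). For none of the members did the F2Sy and F2 libraries of this lineage overlap, as for 39.7% of all miRNAs tested. In Control SC, F2Sy over F2 was -0.12 ± 0.49 for miR-183-5p, and the difference of both values, MEHP minus Control, was 2.89 ± 0.70 (adjusted p = 0.297 in edgeR's quasi-likelihood test and 0.00268 with DESeq2, the lowest of its alternatives, which reach 0.411). The call was lost with blanks read as 0 and no filter (adjusted p = 0.0557; 6.0e-07 with DESeq2, the lowest), and without library 1 of MEHP SC F2, library 2 of MEHP SC F2 or library 2 of MEHP SC F2Sy, with adjusted p of 0.143, 0.3 and 0.053, while the difference stayed between 2.69 and 2.88.

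Marker sums of other cells in these libraries were set beside the result. The germ cell marker sum was higher in MEHP SC F2Sy, at 14233 and 10466 CPM, than in MEHP SC F2, at 6849 and 9801 CPM, without overlap. It was 7610 and 13661 CPM in Control SC F2, and the MEHP SC F2 libraries lay within the range of the SC fraction. The somatic marker sum lay between 222354 and 233219 CPM in all 6. Of the 5 erythroid markers, only miR-451a was listed in every library. It too was higher in MEHP SC F2Sy without overlap, at 18173 and 85923 CPM against 14263 and 17343 CPM in MEHP SC F2. In Control SC F2 miR-451a stood at 11114 and 10795 CPM. The value of 85923 CPM was the highest of the SC libraries. The sensory and neural sum (3 of 6 markers listed in every library) did not overlap between the MEHP classes, with 5949 and 1592 CPM in MEHP SC F2Sy, the value of 1592 CPM being the lowest of the SC libraries, and 7282 and 6844 CPM in MEHP SC F2; in Control SC F2 it was 6653 and 2162 CPM. miR-126a-3p, the endothelial marker listed in every library (1 of 2), was also without overlap between the MEHP classes, with 19610 and 24718 CPM in MEHP SC F2Sy, 25315 and 26234 CPM in MEHP SC F2 and 25359 and 27825 CPM in Control SC F2. The miR-200 sum (4 of 5) was 3670 and 4111 CPM in MEHP SC F2Sy, 3290 and 4085 CPM in MEHP SC F2 and 2957 and 3192 CPM in Control SC F2. The leukocyte marker miR-150-5p (1 of 4) was 77.3 and 138, 84.1 and 146, and 122 and 98.9 CPM in the same groups, and overlapped. The part of these cells in the result was not tested. Lack of overlap between the MEHP classes was common, seen for 39.7% of all miRNAs tested.

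In the VZN germ cells of the F2Sy class the pair of libraries was uneven. miR-183-5p had 32571 and 13283 CPM in VZN PGC F2Sy, against 47717 and 49900 CPM in Control PGC F2Sy, a difference of -1.18 ± 0.33 that did not pass (adjusted p = 0.309). Against VZN PGC F2, at 46682 and 49639 CPM, it was -1.13 ± 0.33 (adjusted p = 0.265). miR-182-5p had 30583 and 10696 CPM in VZN PGC F2Sy, 43948 and 25982 CPM in Control PGC F2Sy and 35262 and 40699 CPM in VZN PGC F2, with differences of -0.84 ± 0.49 and -0.94 ± 0.49 that did not pass. miR-96-5p went the other way in the second library, with 8096 and 13373 CPM against 8329 and 11684 CPM in Control PGC F2Sy. Both libraries lay below the Control pair for miR-183-5p, and the size depended on which was kept: with library 1 left out miR-183-5p differed from Control by -2.12 (adjusted p = 0.000473) and with library 2 left out by -0.70 (adjusted p = 0.17). For miR-182-5p these values were -1.95 (adjusted p = 0.045) and -0.31 (adjusted p = 0.842). Against VZN PGC F2, leaving out library 1 gave -2.08 for miR-183-5p (adjusted p = 0.000241) and -2.05 for miR-182-5p (adjusted p = 0.0322), and leaving out library 2 gave -0.69 (adjusted p = 0.215) and -0.44 (adjusted p = 0.714). The lone library is assumed to vary like the other groups in such a fit. In both comparisons the single call was miR-652-3p, 1 of 303 miRNAs or 0.33%.

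The smallest p of miR-96-5p in a class comparison of SC was MEHP over Control in F3, with 126 and 338 CPM in MEHP and 558 CPM in both Control libraries. The difference of -1.18 ± 0.46 did not pass (adjusted p = 0.293), and it was -0.60 without library 1 of MEHP SC F3, the SC library least correlated with its fraction, and -2.14 without library 2 (adjusted p = 0.00681). In PGC it was VZN over Control in F1, with 13879 and 9208 CPM in VZN and 8199 and 9379 CPM in Control (0.41 ± 0.31, adjusted p = 0.988).

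**Figure D5:**
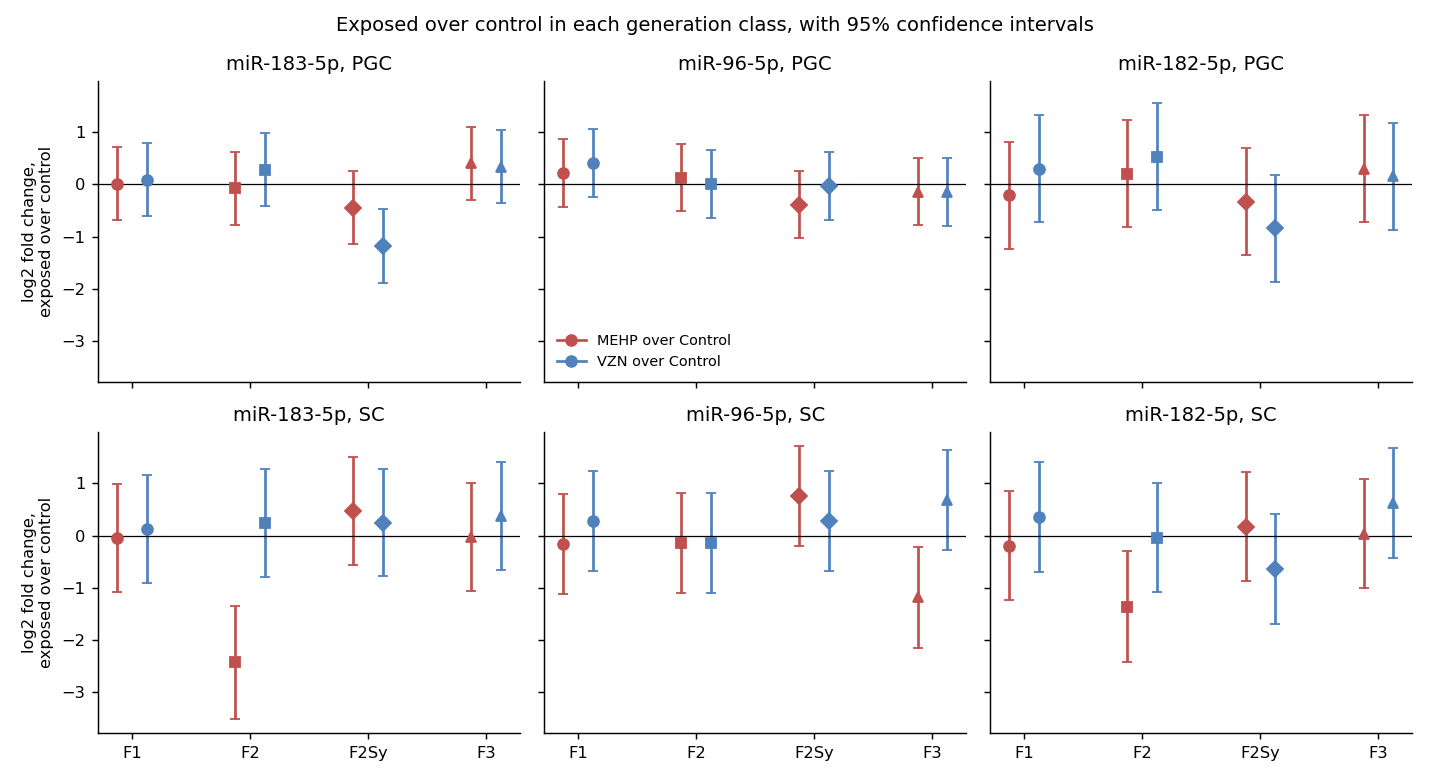
log2 fold change of exposed over Control libraries in each generation class, by member (columns) and fraction (rows); points are edgeR estimates from 2 libraries against 2, bars are 95% confidence intervals, red is MEHP and blue VZN. Most intervals include 0, and the lowest value is miR-183-5p in MEHP SC F2, at -2.42.

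Over all 18 values of F2Sy over F2, the one call named above was the only one for the members, against 0.101% of the values of all miRNAs. The libraries of both classes did not overlap for 7 of the 18, and for 38.4% of the values of all miRNAs. Among controls alone, no member differed between the 4 generation classes in either fraction (6 joint tests, none with an unadjusted p under 0.05, against 2.43% of all miRNAs, smallest adjusted p 0.991).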

How the data were processed

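The authors deposited whole-number counts of reads in 563 rows of mature miRNAs; per the file headers a row adds up canonical reads and isomiRs. Bowtie 1.3.1 and build mm39 come from the submitters' processing notes; the counting rules were not given in the labels or headers used. Blank cells (26.2%, and no 0 is listed) were taken as missing, so library totals cover listed counts only and CPM are relative to them. A fit used the miRNAs listed in all its libraries: 251 for 48 libraries, 303 for PGC and 355 for SC. Tests were edgeR 4.0.16 in R 4.3.3: filterByExpr, TMM factors, a robust two-sided quasi-likelihood test and Benjamini-Hochberg adjustment within a comparison, with 0.05 as the threshold of the adjusted p. Its estimate of biological variation (BCV) was 0.310 for 48 libraries, 0.336 for PGC and 0.297 for SC. Fraction contrasts came from 1 fit of 24 groups, exposure and class contrasts from the 12 groups of a fraction. The script was tested on simulated data. Correlations used log2 CPM with TMM factors.

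The members and marker lists were chosen with earlier results of these data known. Named are the members, their other arms and the seed relative; for classes and F2Sy the comparison with the smallest p per member and fraction; the 3 nearest miRNAs by likeness; and up to 4 abundant markers of a list. Single libraries were singled out after their values were seen. Alternatives, DESeq2 1.42.0 among them, are given at the end. Reads were not collapsed by molecular identifiers, so several can stem from 1 molecule.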

Additional observations from a re-analysis of the deposited data

Results flagged for a closer look

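Within each lineage and fraction, 36 sets of 8 libraries were searched for a library far from the others by Dixon's criterion. The sets held the members' CPM and their shares of the members' counts. Chance meets the criterion in about 1 of 20 independent sets, but these sets share libraries and counts. It was met in 6 sets, all in the VZN lineage. The criterion looks for a single library, so a pair that stands apart together, as in MEHP SC F2, can escape it. Library 2 of VZN PGC F2Sy had 10696 CPM of miR-182-5p, the lowest of its set, with a miR-183-5p share of 35.6%, also the lowest, and a miR-96-5p share of 35.8%, the highest. It has the fewest listed counts of the 48 libraries. Library 2 of VZN SC F3 had 3112 CPM of miR-182-5p, the highest of its set, beside the highest germ cell marker sum of the SC fraction. Library 1 of VZN SC F3 had a miR-96-5p share of 23.5%, the highest of its set. Library 1 of VZN SC F2Sy had a miR-182-5p share of 13.4%, the lowest of its set.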

How the results depend on the processing

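All 9 contrasts of PGC over SC remained called under every alternative and without any single library, between 4.15 and 5.69. Every difference of contrasts and every mean exposure value remained uncalled under all of them. Several changed sign, and not only those nearest 0. For miR-183-5p these included the difference of contrasts for VZN minus Control, -0.36 above, and VZN over Control in SC, 0.25 above. For VZN minus Control the difference of contrasts for miR-182-5p was 0.023 with RLE factors and with DESeq2, 0.013 with library size alone, 0.035 with blanks as 0 and no filter, 0.064 with blanks at the smallest listed count, 0.26 without the smallest PGC library and the least correlated SC library (library 2 of VZN PGC F2Sy and library 1 of MEHP SC F3), and 0.067 without the F2Sy class, where that of miR-183-5p was 0.043. Without the F2Sy class, MEHP over Control in PGC was 0.13 for miR-183-5p, 0.077 for miR-96-5p and 0.12 for miR-182-5p (0.0066 with blanks at the smallest listed count), and VZN over Control was 0.27 for miR-183-5p. Without those 2 libraries VZN over Control in PGC was 0.0042 for miR-183-5p and -0.037 for miR-96-5p. The cause of these changes was not tested. These last 2 alternatives were chosen after seeing the data.

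With each library left out in turn, MEHP over Control in PGC lay between -0.088 and 0.029 for miR-183-5p, -0.11 and 0.018 for miR-96-5p, and -0.16 and 0.20 for miR-182-5p. VZN over Control lay between -0.32 and 0.0042, -0.060 and 0.14, and -0.21 and 0.23 in PGC, and in SC between -0.086 and 0.44 for miR-183-5p and -0.15 and 0.21 for miR-182-5p. The difference of contrasts lay between -0.069 and 0.31 for miR-96-5p (MEHP) and -0.29 and 0.19 for miR-182-5p (VZN). The count of member calls within classes was 1 with DESeq2 (0.228% of all values called) and 1 with library size alone (0.038%). That of F2Sy over F2 was 0 with blanks as 0 and no filter (0.0339%). Without 1 library, member calls were 0 to 2 within classes and 0 to 3 for F2Sy over F2. For these fits no share of all values called is given, and a group in them holds a lone library. Whether the members were called more often there than other miRNAs was not tested.

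With blanks as 0 and no filter, 497, 482 and 489 of 563 miRNAs were called between fractions in the MEHP, VZN and Control lineages, against 219, 204 and 211 of 251. Library size alone moved the median of all miRNAs by -0.11 in the Control lineage. Levels with TMM factors stayed within 1 SD.

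Whether libraries with the same replicate number share animals, litters or days is not told in the labels. PGC and SC libraries of a group and number may stem from 1 pool, and the fits did not pair them. Over 66 pairs of groups within a fraction, the correlation of same-numbered deviations had a median of 0.022 in PGC and 0.076 in SC. It exceeded 0.1 in 23 and 28, and was not computed between fractions. With the number as a replicate block, PGC over SC in controls was 4.80, 4.78 and 4.70 for miR-183-5p, miR-96-5p and miR-182-5p, member calls stayed at 0 within classes and 1 for F2Sy over F2, and no call changed. Blanks limit what can be said of the other arms in SC; the members were listed in all 48 libraries.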
